A study of Mus musculus with 6 samples.

Results

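The 8 genes described here belong to the sterol regulatory element-binding protein (SREBP) pathway of lipid synthesis and were taken by symbol from the deposited count table, which gave 1 line for each. They were 4 genes of the sterol branch, Hmgcs1, Sqle, Insig1 and Idi1, and 4 of the lipogenic branch, Srebf1, Fasn, Scd1 and Scd2. All 8 passed the filter on low counts and stood among 17686 genes tested, out of 29753 lines used. Whole lungs of balb/c mice were taken on 2 days, labelled D0 (day 0) and D14 (day 14), counted from the orthotopic implantation of K7M2 cells, a metastatic mouse osteosarcoma line, and their RNA was sequenced in bulk. Each day had 3 libraries, and both groups carry the implantation in their label, so that by the labels the day alone separates them. No D14 lungs without implanted cells were analysed here, and tumour, procedure, age and day of collection cannot be told apart. The libraries are labelled as biological replicates, and the series speaks of independent experiments, but the labels give neither the animals' age nor the number of mice behind a library.

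SREBP proteins are held in the endoplasmic reticulum by Scap and the Insig proteins while sterols are plentiful, and are carried to the Golgi and cleaved by the Mbtps1 and Mbtps2 proteases when sterols run short. The freed fragment enters the nucleus and activates its target genes, with the product of Srebf2 acting mainly on cholesterol synthesis and uptake and that of Srebf1 mainly on fatty acid synthesis. In the lung, alveolar type 2 cells use the pathway to make the phospholipids of surfactant, and fat cells around the airways and great vessels make and store fatty acids.

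The sterol branch is known for a short promoter motif that SREBP binds, the sterol regulatory element, next to sites of the factors NF-Y and Sp1. Of the promoter sequences at hand, that of Hmgcs1 is shown because it held the sterol element, and that of Fasn because the level of Fasn was the most uneven of the 8 genes. They are the 250 bases before the RefSeq start site in GRCm38.p6, 5′ to 3′ on the gene's strand, with matches to TCACNCCAC (sterol element), CCAAT (NF-Y), GGGCGG (Sp1) or CACGTG (E-box) on either strand in capitals. Hmgcs1 lies at chr13:119690101-119690350 on the plus strand and Fasn at chr11:120824548-120824797 on the minus strand.
Hmgcs1: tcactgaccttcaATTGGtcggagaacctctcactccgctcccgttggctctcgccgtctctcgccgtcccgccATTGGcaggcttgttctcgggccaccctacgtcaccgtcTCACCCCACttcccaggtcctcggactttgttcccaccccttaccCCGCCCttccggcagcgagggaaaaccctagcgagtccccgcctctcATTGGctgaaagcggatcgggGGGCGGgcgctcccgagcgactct
Fasn: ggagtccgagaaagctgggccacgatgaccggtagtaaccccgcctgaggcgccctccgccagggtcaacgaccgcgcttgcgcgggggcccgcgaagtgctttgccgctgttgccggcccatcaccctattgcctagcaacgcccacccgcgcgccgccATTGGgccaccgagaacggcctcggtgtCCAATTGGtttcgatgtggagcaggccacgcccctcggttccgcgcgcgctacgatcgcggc

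The Hmgcs1 window held 1 match to the sterol element, TCACCCCAC, whose first base was 137 bases before the start. Of all 32851 promoter windows of that length, 1.05% held such a match. No match to these letters stood in the windows of Fasn, Insig1 or Idi1 or at the 3 start sites given for Srebf1. Sites with other letters or outside the window were not searched, so a missing match does not mean that SREBP has no site there. CCAAT, present in 33.8% of all windows, matched 3 times in Hmgcs1, where the matches did not touch the sterol element. In Fasn it also matched 3 times, 2 of the matches overlapping in the run of 8 capitals. It matched 2 times in Idi1, 1 time in Insig1 and 1 time at each of 2 Srebf1 starts. GGGCGG, in 32.7% of all windows, matched 3 times in Insig1, 2 times in Hmgcs1, 1 time in Idi1, 2 times at each of 2 Srebf1 starts and 0 times in Fasn, and the E-box, in 6.02%, matched in Insig1 alone among Hmgcs1, Insig1, Idi1, Srebf1 and Fasn. Windows for Sqle, Scd1 and Scd2 are not shown.

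In GRCm38 coordinates the genes lie on chromosome 13 from 119690379 to 119708260 (Hmgcs1) and from 8885501 to 8892451 (Idi1), chromosome 15 from 59315077 to 59331192 (Sqle), chromosome 5 from 28071363 to 28078662 (Insig1), and chromosome 11 from 60199089 to 60222581 (Srebf1) and from 120805846 to 120824547 (Fasn). Scd1 (44394455 to 44407879) and Scd2 (44293674 to 44306864) are neighbours on chromosome 19. All are protein-coding, and counts were summed over each whole gene, so isoforms such as those from the 3 start sites of Srebf1 were not separated. Srebf1 overlaps Rai1, a gene on the opposite strand with 414 to 642 counts per library, and strand handling is not given in the sources used here. Transcripts of Scd1 shared 2.66% of their 100-base windows with other genes, and those of Scd2 0.896%. For Idi1 the share was 20%, with the pseudogene Gm13502 and with Gm35570, so the level of Idi1 is uncertain.

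The lipogenic desaturases Scd1 and Scd2 had the highest levels of the 8 genes per transcript length in 5 of the 6 libraries; in D14 replicate 3 Fasn, at 212 CPM per kilobase, stood above Scd2, at 134. In CPM (counts scaled to the same library total in all samples, with TMM factors) per kilobase of the longest transcript, Scd1 had 193 ± 14.2 and Scd2 156 ± 22.9 at D0 (SD, n = 3). Fasn followed with 55.1 ± 16.6, Hmgcs1 with 34.1 ± 3.63, Insig1 with 28.6 ± 4.99, Srebf1 with 27.4 ± 1.70, Idi1 with 15.2 ± 2.60 and Sqle with 8.49 ± 1.05 CPM per kilobase. Hmgcs1, Insig1 and Srebf1 changed places between the D0 libraries, so that their order is within the spread. Per kilobase of the longest transcript, Scd1 stood above Scd2 in each library. Without division by length, D0 replicate 2 had 946 CPM of Scd1 and 998 CPM of Scd2. At D14 the levels were 395 ± 323 CPM per kilobase for Scd1, 144 ± 8.87 for Scd2 and 106 ± 92.1 for Fasn, followed by Hmgcs1 with 40.6 ± 2.51, Insig1 with 26.7 ± 1.33, Srebf1 with 24.4 ± 1.15, Idi1 with 13.4 ± 6.63 and Sqle with 8.64 ± 2.53. The order of the middle genes depends on the length used: per kilobase of coding sequence Insig1 had 99.3 at D0, above Hmgcs1 with 75.8 and Fasn with 73.7.

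The comparison of D14 with D0 asks whether lipid synthesis genes of the lung change in the period that the series title calls formation of a pre-metastatic niche. None of the 8 genes passed: 0 were called at an adjusted p of 0.05 by the edgeR quasi-likelihood test, which called 0.0339% of all tested genes. At an unadjusted p under 0.05 stood 0 of the 8, against 12.6% of all tested genes. DESeq2, which called 1.24% of its genes, and limma-voom, which called 0.0339%, also called 0 of the 8, with 1 (Scd1, DESeq2 adjusted p = 0.313) and 0 of them at an unadjusted p under 0.05. The log2 fold changes (D14 minus D0) were positive for 4 genes and negative for 4, against 46.9% and 53.1% of all tested genes, with a median of −0.04 against −0.03 over all tested genes. D0 and D14 ranges did not overlap for 2 of the 8, against 21.6% of all tested genes. Hmgcs1 was higher, as were 10.9% of all tested genes by that measure, and Srebf1 lower, as were 10.7%.

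**Figure D1:**
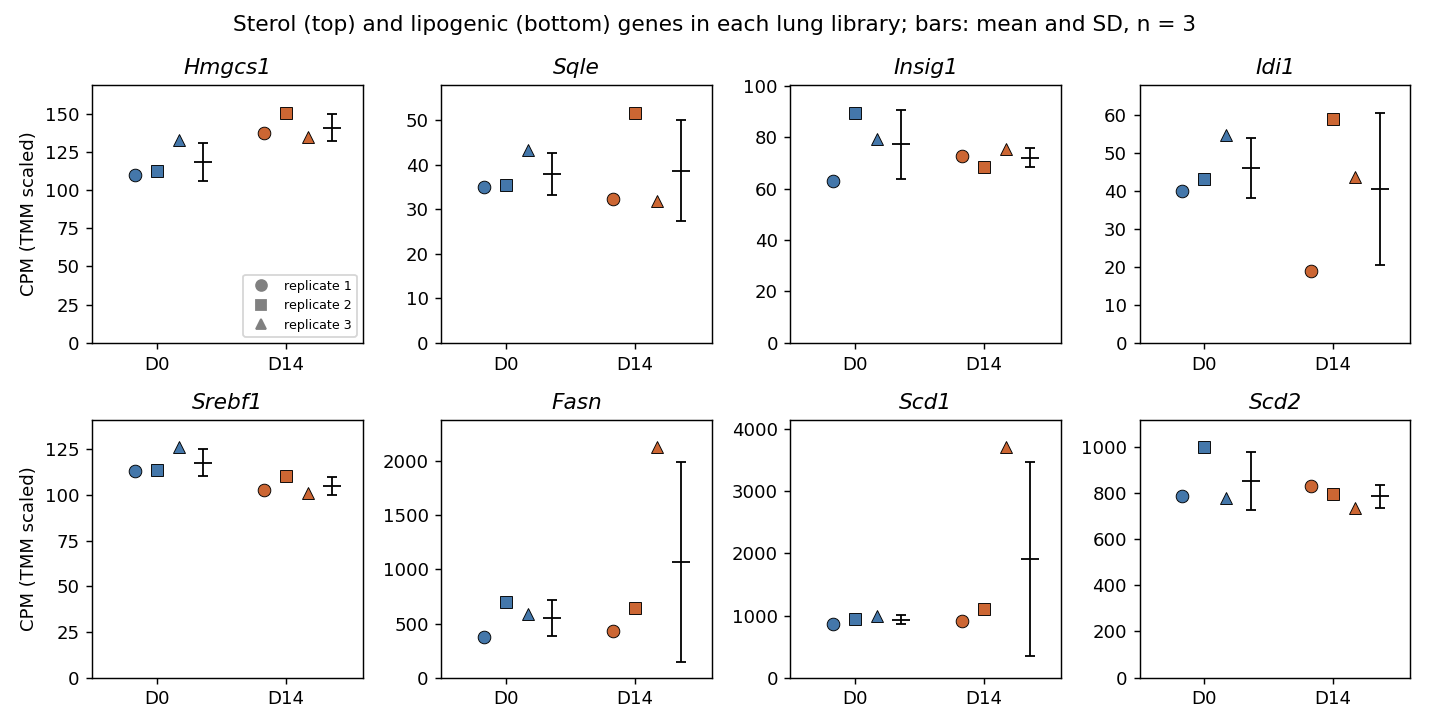
Level of each gene (y axis, TMM-scaled CPM, from 0) in the 3 D0 and 3 D14 libraries; marker shapes give the replicate number and black bars the mean and SD. Fasn and Scd1 in D14 replicate 3, at 2128 and 3707 CPM, stand far above their other libraries, and Idi1 is lowest in D14 replicate 1, at 19.0 CPM.

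Hmgcs1, the synthase that makes HMG-CoA at the entry of the mevalonate pathway, had 110, 112 and 133 CPM at D0, compared with 137, 151 and 135 CPM at D14. All D14 libraries were above all D0 libraries, though D0 replicate 3 came within 2 CPM of the lowest D14 library. The log2 fold change was 0.25 (SE 0.14, 95% interval −0.08 to 0.59; adjusted p = 0.474, edgeR). It stayed positive without any one library, between 0.20 and 0.34. Idi1, the isomerase of isopentenyl diphosphate, had 39.8, 43.0 and 54.8 CPM at D0, compared with 19.0, 58.7 and 43.7 CPM at D14. The D14 libraries held both the lowest and the highest level, and the log2 fold change of −0.18 (SE 0.37; edgeR, adjusted p = 0.841) became 0.17 without D14 replicate 1. The pseudogene Gm13502, which shares sequence with Idi1, had 126, 188 and 120 counts at D0, compared with 219, 305 and 243 counts at D14. Summed with it, Idi1 had 811, 861 and 900 counts at D0, compared with 547, 1226 and 925 counts at D14, so D14 replicate 1 remained the lowest library.

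Sqle, squalene epoxidase, the first oxygen-dependent enzyme of sterol synthesis, had 35, 35.5 and 43.3 CPM at D0, compared with 32.3, 51.7 and 31.8 CPM at D14. D14 replicate 2 was highest and the ranges overlapped. The log2 fold change was 0.02 (SE 0.22, 95% interval −0.49 to 0.54; adjusted p = 0.964, edgeR), and it was −0.04 without scaling factors. Within a library the ratio of Sqle to Hmgcs1 in CPM, which does not depend on the scaling, was 0.319, 0.316 and 0.326 at D0. At D14 it was 0.236, 0.343 and 0.236, so the D0 ratios lay between the D14 ones. Insig1, an anchor that keeps SREBP in the endoplasmic reticulum, is itself an SREBP target. It had 62.8, 89.5 and 79.1 CPM at D0, compared with 72.6, 68.2 and 75.2 CPM at D14. All D14 values fell inside the D0 range, with a log2 fold change of −0.10 (SE 0.16, 95% interval −0.48 to 0.28; adjusted p = 0.799, edgeR).

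The rest of cholesterol synthesis gave the same count. Of 18 further enzymes tested, 0 were called by edgeR, limma-voom or DESeq2, 1 higher and 1 lower had an unadjusted p under 0.05 (edgeR), and 12 of the 18 had a positive log2 fold change, against 46.9% of all tested genes. The median was 0.04 and the summed level was 637 to 735 CPM at D0 and 693 to 854 CPM at D14. Mvk, mevalonate kinase, had lower levels in all D14 libraries, with 26.7, 25.1 and 30.2 CPM at D0, compared with 22.0, 21.4 and 19.0 CPM at D14 (log2 fold change −0.40, SE 0.15; adjusted p = 0.373, edgeR). Lbr, a sterol reductase of the nuclear envelope, stood at 0.13 (SE 0.16).

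Sterol uptake genes and further Srebf2-type targets outside synthesis likewise had 0 calls by edgeR, limma-voom or DESeq2 among 6 tested. At an unadjusted p under 0.05 stood 0 (edgeR), with 4 positive and a median log2 fold change of 0.21. Npc1, which exports cholesterol from lysosomes, stood at 0.30 (SE 0.15) and Stard4, a sterol carrier, at 0.14 (SE 0.20). Lpin1, which is also in the glycerolipid synthesis list, stood at 0.55 (SE 0.29). Without D14 replicate 3, where Lpin1 had 57.7 CPM against at most 37.2 CPM elsewhere, Lpin1 stood at 0.25 and Stard4 at 0.24. Npc1l1, the intestinal sterol transporter, was below the filter, with 0 to 4 counts in a library, where 3 counts correspond to 0.173 to 0.202 CPM (counting error alone).

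The genes that process and restrain SREBP had 0 calls by edgeR, limma-voom or DESeq2 among 14 tested and 0 at an unadjusted p under 0.05 (edgeR), with 11 positive and a median log2 fold change of 0.11. Srebf2, the sterol branch factor, had 216, 225 and 158 CPM at D0, compared with 235, 259 and 207 CPM at D14 (log2 fold change 0.23, SE 0.19; adjusted p = 0.589, edgeR). Insig2 stood at 0.30 (SE 0.15), with levels in all D14 libraries above those at D0. Mbtps1, the first protease, varied from 67.3 to 180 CPM within D0 and stood at 0.35 (SE 0.36). Sp1, a promoter partner of SREBP, stood at 0.37 (SE 0.23).

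Srebf1, the lipogenic SREBP, had 113, 114 and 126 CPM at D0, compared with 103, 110 and 101 CPM at D14. All D14 libraries were below all D0 libraries, by a gap smaller than the spread within either day. The log2 fold change was −0.17 (SE 0.13, 95% interval −0.47 to 0.14; adjusted p = 0.578, edgeR), and it stayed negative without any one library, between −0.20 and −0.11. Srebf1 was also the steadiest of the 8 genes: its SD of log2 CPM over the 6 libraries was 0.115, smaller than that of all but 6.96% of the 11117 genes with a mean of at least 10 CPM, whose median was 0.266. Scd2, the desaturase of brain and developing tissues, had 785, 998 and 777 CPM at D0, compared with 829, 794 and 733 CPM at D14. The ranges overlapped, with a log2 fold change of −0.12 (SE 0.17, 95% interval −0.52 to 0.28; adjusted p = 0.770, edgeR).

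Fasn, fatty acid synthase, had 374, 703 and 585 CPM at D0, compared with 429, 643 and 2128 CPM at D14. A single library, D14 replicate 3, stood at 3.03 times the next highest, and the other D14 libraries lay inside the D0 range. The log2 fold change of 0.95 (SE 0.58, 95% interval −0.41 to 2.30; adjusted p = 0.492, edgeR) became −0.05 (SE 0.33; adjusted p = 0.975) without D14 replicate 3. Scd1, the stearoyl-CoA desaturase of liver and fat, had 861, 946 and 997 CPM at D0, compared with 909, 1103 and 3707 CPM at D14. Again D14 replicate 3 was far above the rest, 3.36 times the next highest, and only D14 replicate 2 among the others exceeded the D0 range. The log2 fold change of 1.03 (SE 0.51, 95% interval −0.16 to 2.22; adjusted p = 0.430, edgeR) became 0.11 (SE 0.21; adjusted p = 0.893) without that library. Both intervals include 0 and reach beyond 2, and without D14 replicate 3 the share of all tested genes called was 0%.

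**Figure D2:**
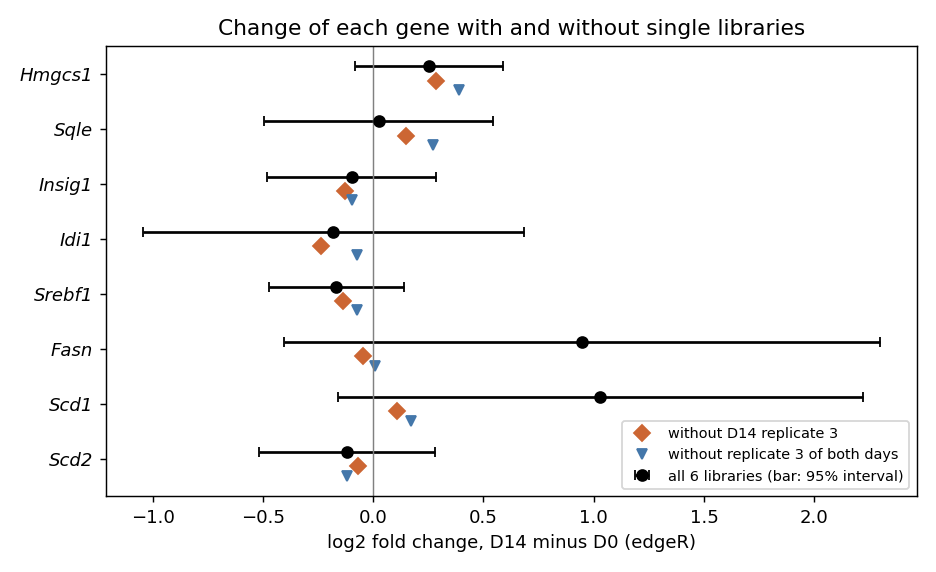
Log2 fold change of each gene, D14 minus D0 (x axis), from edgeR on all 6 libraries (black, bar 95% interval), without D14 replicate 3 (orange) and without replicate 3 of both days (blue). The values of Fasn and Scd1 move from 0.95 and 1.03 to −0.05 and 0.11 without D14 replicate 3.

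The neighbouring desaturases parted in that library. The ratio of Scd1 to Scd2 in CPM was 1.10, 0.948 and 1.28 in the D0 libraries, 1.10 and 1.39 in D14 replicates 1 and 2, and 5.06 in D14 replicate 3. The ratio of Fasn to Scd1 stayed between 0.434 and 0.743 in all 6 libraries and was 0.574 in D14 replicate 3. With 3 libraries against 3, an exact permutation test could reach no p below 0.1, and none was run on these ratios. The mean log2 CPM of the 4 sterol genes was 5.94 in D14 replicate 3, between its values of 5.64 and 6.23 in the other D14 libraries and within the D0 range of 5.80 to 6.15. The mean of the 4 lipogenic genes was 9.77 there and 8.68 to 9.03 in the other 5 libraries. This height came from Fasn and Scd1, whose mean was 11.5 there and 9.15 to 9.72 elsewhere. The mean of Srebf1 and Scd2 was lowest there, at 8.09 against 8.19 to 8.40 elsewhere. Of the 8 genes, 2, Fasn and Scd1, reached at least 2 times their highest other level in D14 replicate 3, as did 0.509% of all tested genes.

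Fatty acid synthesis genes outside the 8 showed the same library. Of 19 tested, 0 were called by edgeR, limma-voom or DESeq2, 1 had an unadjusted p under 0.05 (edgeR), 14 had a positive log2 fold change and the median was 0.14. Without D14 replicate 3, 10 of the 19 were positive, against 45.9% of all genes tested then, and the median was 0.01. The 5 that reached at least 2 times their highest other level in D14 replicate 3, singled out after their values were seen, included Acaca, acetyl-CoA carboxylase, the rate-limiting step before Fasn. Acaca had 263 CPM there and 56.5 to 76.3 CPM in the other 5 libraries (log2 fold change 1.03, SE 0.53; adjusted p = 0.444, edgeR), and its log2 fold change without that library was 0.05. Elovl6, the elongase that works with Scd1, had 89.5 CPM there and 6.84 to 18.8 CPM elsewhere. Thrsp, a lipogenic regulator of fat and liver, had 299 CPM there but also varied from 14.2 to 104 CPM elsewhere. Acacb had 112 against 39.0 to 51.6 CPM, and Me1, which supplies NADPH for synthesis, 288 against 80.3 to 142 CPM.

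The other fatty acid synthesis genes of the list stayed below 2 times their highest other level in D14 replicate 3. Of the 19, 10 were highest in that library, the 5 above included. The share of all tested genes highest in that library is not given here. Acly, which makes cytosolic acetyl-CoA, had 559 CPM in D14 replicate 3 and 227 to 334 CPM elsewhere (log2 fold change 0.63, SE 0.27; adjusted p = 0.398, edgeR), and its log2 fold change without that library was 0.29. Elovl5, which elongates polyunsaturated fatty acids, had levels in all D14 libraries above those at D0, with a log2 fold change of 0.26 (SE 0.15). Elovl1 stood at −0.26 (SE 0.19), and at −0.16 without D14 replicate 3. Mcat, an enzyme of mitochondrial fatty acid synthesis, had 22.2, 20.6 and 18.4 CPM at D0, compared with 14.5, 9.95 and 12.4 CPM at D14. Its ranges did not overlap, and its log2 fold change of −0.73 (SE 0.19) had the smallest p of the list without passing (adjusted p = 0.347, edgeR).

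**Figure D3:**
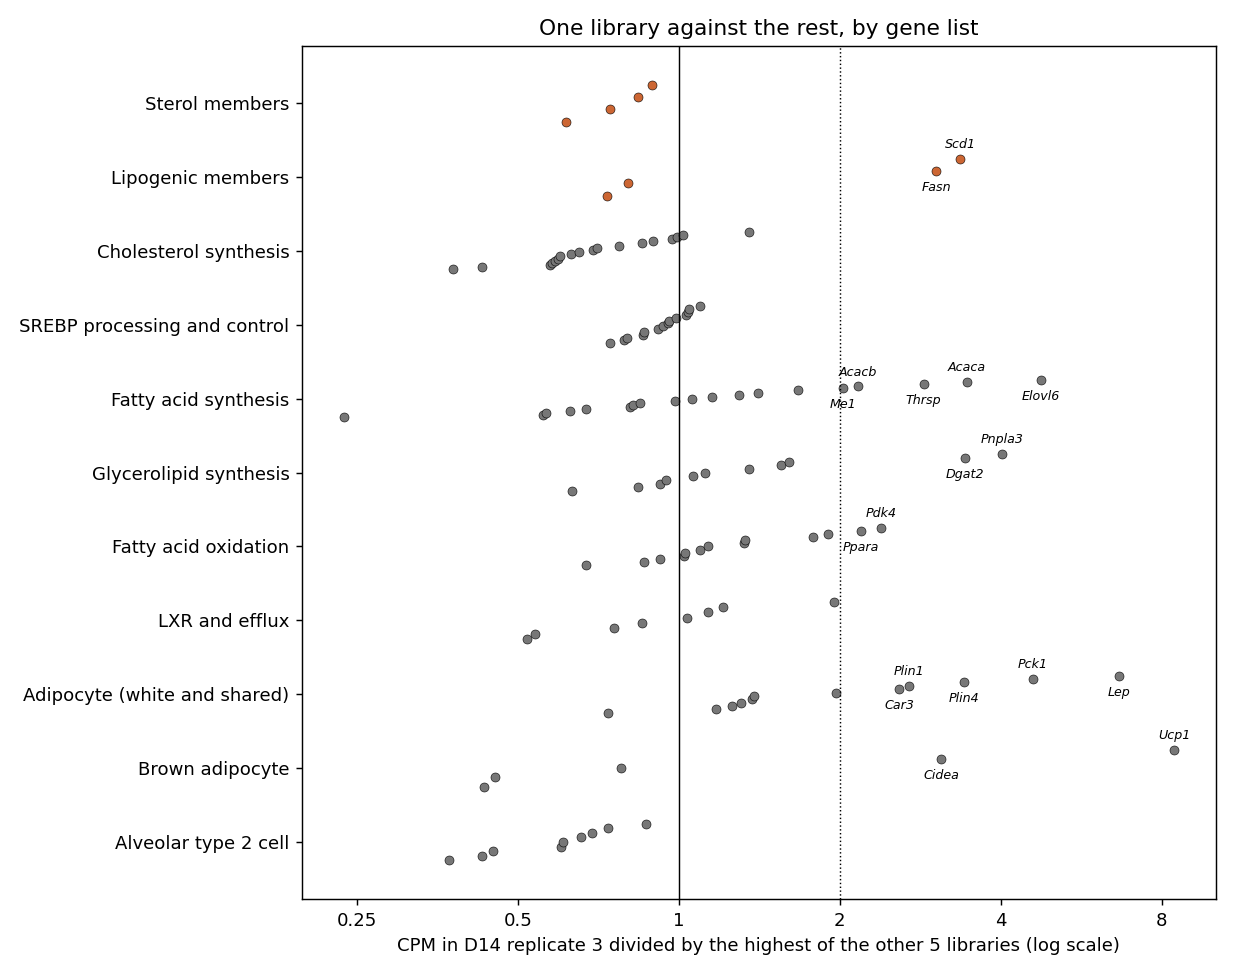
CPM in D14 replicate 3 divided by the highest of the other 5 libraries (x axis, log scale), 1 point per tested gene, by gene list; the solid line marks 1, the dotted line 2, and genes at or above 2 are named. The 4 sterol genes and all 18 cholesterol synthesis genes lie below 2, while Fasn at 3.03 and Scd1 at 3.36 lie with Acaca, Elovl6, Dgat2 and Ucp1 above it.

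Markers of fat cells moved with Fasn and Scd1 in D14 replicate 3, and their part in the result was not tested. All 12 adipocyte markers of the list, among them Adipoq, Plin1 and Fabp4, were detected, though Lep had 0 counts in D0 replicate 1; 11 of them were highest in D14 replicate 3, and their summed level was 2433 CPM in D14 replicate 3 against 137 and 337 CPM in the other D14 libraries. How many of all tested genes were highest in D14 replicate 3 is not given here. At D0 the sum of the adipocyte markers was 165, 651 and 1430 CPM. D0 replicate 3 was thus second in the sum, at a distance from D14 replicate 3 that differed by marker. Adipoq had 63.1 CPM in D0 replicate 3 against 79.2 CPM in D14 replicate 3, Plin1 33.1 against 89.0 CPM and Car3 369 against 953 CPM. For Pck1 and Plin4, D0 replicate 2 was second, at 36.6 and 20.6 CPM. Of the 12, 5 (Plin1, Lep, Pck1, Car3 and Plin4) reached at least 2 times their highest other level in D14 replicate 3. Of all tested genes 0.509% did. In D0 replicate 3 Fasn and Scd1, at 585 and 997 CPM, lay within the range of the 4 libraries outside that pair, 374 to 703 CPM and 861 to 1103 CPM. Acaca there was 61.6 CPM, Elovl6 7.23 CPM and Acacb 39.5 CPM, also within the range of those libraries. Thrsp at 104 CPM and Me1 at 142 CPM were above that range, which was 14.2 to 82.4 CPM for Thrsp and 80.3 to 114 CPM for Me1, and second to D14 replicate 3. Without replicate 3 of both days the log2 fold changes were 0.01 for Fasn (SE 0.37; edgeR, adjusted p = 0.996) and 0.17 for Scd1 (SE 0.19; edgeR, adjusted p = 0.812).

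The libraries with many adipocyte transcripts differed in which ones they held. Cfd, adipsin, was higher in D0 replicate 3 than in D14 replicate 3, at 339 against 250 CPM, whereas Pck1, which makes glycerol phosphate in fat, was 27.6 against 168 CPM and Lep, leptin, 1.76 against 11.7 CPM. The 6 brown fat markers did not move together, and their sum of 250.2 CPM in D14 replicate 3, against 20.3 to 98.2 CPM elsewhere, was mostly Ucp1. Ucp1, the uncoupling protein that defines brown fat, had 174 CPM in D14 replicate 3, 20.6 CPM in D14 replicate 2, 15.2 CPM in D0 replicate 2 and at most 1.40 CPM in the other 3 libraries. Cidea had 28.5 CPM in D14 replicate 3 and 1.34 to 9.20 CPM elsewhere, and Elovl3, below the filter, had at most 10 counts in a library. The other 3 were highest in D0 replicate 3: Cox8b had 37.4 CPM there and 16.2 CPM in D14 replicate 3, Fabp3 38.6 and 17.5 CPM, and Cox7a1 17.8 and 13.8 CPM. Bulk libraries cannot tell fewer cells of a type from less RNA per cell.

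**Figure D4:**
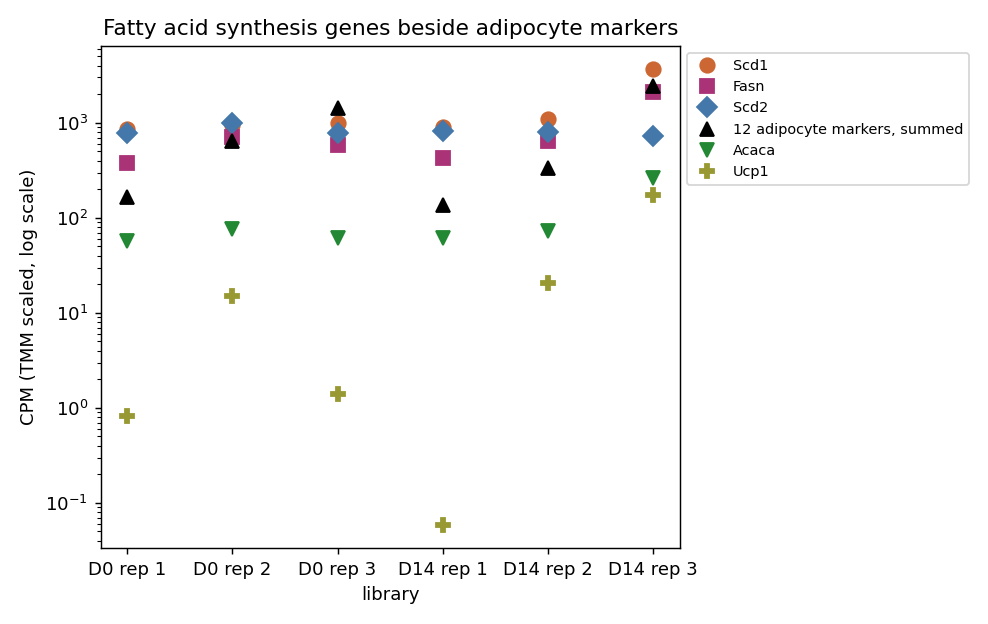
TMM-scaled CPM (y axis, log scale) of Scd1, Fasn, Scd2, Acaca and Ucp1 and the sum of the 12 adipocyte markers in each of the 6 libraries. The adipocyte sum is high in D0 replicate 3 (1430 CPM) and D14 replicate 3 (2433 CPM), whereas Scd1, Fasn and Acaca are high in D14 replicate 3 alone; Ucp1 is highest there (174 CPM) and next in D14 replicate 2 (20.6 CPM) and D0 replicate 2 (15.2 CPM).

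Several markers of alveolar type 2 cells, the main lipid-making epithelium of the lung, were lowest in D14 replicate 3. The 9 markers summed to 21927, 30988 and 48691 CPM at D0 and to 29033, 28200 and 21994 CPM at D14, a sum made up mostly of Sftpc. Of the 9, 5 were lowest of all 6 libraries in D14 replicate 3: Sftpb (2335 CPM), Sftpd (478 CPM), Slc34a2 (1691 CPM), Napsa (258 CPM) and Etv5 (132 CPM). So were 2 of the 5 type 1 markers, Ager (1243 CPM) and Aqp5 (61.8 CPM). Of the type 2 markers, Sftpc, Sftpa1 and Lamp3 were lowest in D0 replicate 1 and Abca3 in D0 replicate 3. The share of all tested genes lowest in D14 replicate 3 is not given here. The part of these cells in the result was not tested. Sftpc, surfactant protein C, had at least 12446 CPM in each library, which bears on the label: its extraction protocol speaks of BMDMs, whereas the tissue is given as lungs. The 4 lipofibroblast markers summed to 830 CPM in D14 replicate 3 and to 572 to 700.3 CPM elsewhere, mostly through Pdgfra, a fibroblast receptor, with 538 CPM there and 221 to 420 CPM elsewhere. Plin2, which coats lipid droplets, had 195 CPM there and 145 to 280 CPM elsewhere, and Tcf21 was lowest there, at 61.1 CPM against 76.1 to 117 CPM. Fgf10, which had the smallest p of these markers, had 19.0 to 19.7 CPM at D0 and 33.8 to 37.3 CPM at D14 (log2 fold change 0.87, SE 0.13; edgeR, adjusted p = 0.121). Of the osteoblast markers, the lineage of the implanted cells, Bglap and Sp7 had at most 2 counts in a library, and Ibsp had no line. Alpl (263 to 591 counts) and Col1a1 (5766 to 6941 counts) were detected in each library, those of D0 included. Their D0 and D14 ranges overlapped, with Col1a1 at 391 to 412 CPM at D0 and 370 to 443 CPM at D14.

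Genes that use fatty acids to make glycerolipids had 0 calls by edgeR, limma-voom or DESeq2 among 11 tested and 2 higher at an unadjusted p under 0.05 (edgeR), with 6 positive and a median log2 fold change of 0.09. Without D14 replicate 3, 3 of the 11 were positive and the median was −0.26. Dgat2, which completes triglycerides, had 140 CPM in D14 replicate 3 and 8.90 to 40.8 CPM elsewhere, and Pnpla3, a lipogenic target of SREBP, 22.6 CPM and 0.753 to 5.62 CPM. These names were chosen after their values were seen. The most abundant genes of the list were Lpcat1, which remodels surfactant lipid, at −0.64 (SE 0.37), Gpam at −0.25 (SE 0.32) and Chpt1 at 0.09 (SE 0.25). Without D14 replicate 3, Gpam stood at −0.57 and Chpt1 at −0.24. Lpin2 had higher levels in all D14 libraries (log2 fold change 0.78, SE 0.28; adjusted p = 0.364, edgeR). Pcyt1a, the rate-limiting enzyme of phosphatidylcholine synthesis, had 24.2, 30.5 and 101 CPM at D0, compared with 127, 131 and 110 CPM at D14. Its log2 fold change of 1.24 (SE 0.51; edgeR, adjusted p = 0.389) became 2.17 (SE 0.16; adjusted p = 0.00972) without D0 replicate 3, where edgeR called 0.121% of all tested genes. Without any other single library its adjusted p lay between 0.358 and 0.725 (edgeR). Without replicate 3 of both days, a choice made after seeing the data, the log2 fold change was 2.26 (SE 0.18, edgeR, adjusted p = 0.0242). That fit called 0.0447% of genes.

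LXR, the oxysterol receptor that drives Srebf1 and sterol efflux, was followed through 8 genes, of which edgeR, limma-voom and DESeq2 called 0, 1 lower had an unadjusted p under 0.05 (edgeR) and 5 were positive (median log2 fold change 0.03, or −0.08 with 3 positive without D14 replicate 3). Nr1h2, the widely expressed LXR, had 68.8, 94.4 and 88.7 CPM at D0, compared with 67.7, 61.3 and 50.9 CPM at D14 (log2 fold change −0.48, SE 0.18; adjusted p = 0.367, edgeR), and all D14 levels were below those at D0. The efflux transporters Abca1 and Abcg1 stood at 0.31 (SE 0.17) and 0.02 (SE 0.17), and at 0.20 and 0.14 without D14 replicate 3. Apoe was highest in D0 replicate 3, at 470 CPM, and ranged from 144 to 335 CPM in the others. Fatty acid oxidation genes had 0 calls by edgeR, limma-voom or DESeq2 among 13 and 1 higher at an unadjusted p under 0.05 (edgeR), with 10 positive and a median of 0.17, which was −0.09 without D14 replicate 3. Pdk4, a kinase that spares glucose in favour of fat, had 9.54, 31.9 and 38.8 CPM at D0, compared with 38.7, 58.3 and 139 CPM at D14 (log2 fold change 1.56, SE 0.61; adjusted p = 0.380, edgeR). Cpt1a, the gate of mitochondrial fatty acid import, stood at 0.22 (SE 0.18), Hadha at 0.23 (SE 0.20), Hadhb at 0.75 (SE 0.53) and Acadl at 0.04 (SE 0.25). Hadhb had 33.8 CPM in D14 replicate 3 and 7.56 to 17.8 CPM elsewhere. Without that library the log2 fold changes were 0.86 for Pdk4, 0.05 for Hadha, 0.04 for Hadhb and −0.17 for Acadl.

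Over these 7 lists together, 87 genes were tested outside the 8. At an unadjusted p under 0.05 stood 4 higher and 3 lower by edgeR, or 8.05% together. Of all tested genes 12.6% did, 5.48% higher and 7.09% lower. Ranges did not overlap for 14 of the 87, or 16.1%, against 21.6%. At least 2 times the highest other level in D14 replicate 3 was reached by 9 of the 87, or 10.3%, against 0.509% of all tested genes. None of the 9 was an enzyme of cholesterol synthesis. D14 replicate 3 had already stood out for Fasn and Scd1, and the lists were chosen with earlier results of these data known. The share of 10.3% is thus a description and not a test.

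Genes with the most similar profile were sought among 11109 genes with a mean of at least 10 CPM, by the root mean square difference of centred log2 CPM over the 6 libraries. The mean of the 4 lipogenic genes was closest to Idh3a (0.065), a subunit of mitochondrial isocitrate dehydrogenase, Hibch (0.090) and Aldh6a1 (0.097), both enzymes of valine breakdown. The mean of the 4 sterol genes, which spanned only 0.59 on the log2 scale, was closest to Tubb4b-ps1 (0.056), Noa1 (0.060) and Vps45 (0.063). For single genes, Acaca was the closest to both Scd1 (0.120) and Fasn (0.196), and Hadhb, a subunit of the trifunctional oxidation enzyme, came next but 1 for Fasn (0.277). The log2 CPM of Fasn spanned 2.51 and that of Scd1 2.11 over the 6 libraries, with D14 replicate 3 at the top of both. These likenesses are descriptions over 6 libraries of like depth.

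The libraries held 14878101 to 17385006 counts, and the lowest count of any of the 8 genes was 328, of Idi1 in D14 replicate 1. The fit over all genes called 6. On the leading principal component over all genes, D0 replicate 3 lay at 82.9 and the other 5 libraries between −41.5 and 15.7. Levels at or above 2 times the highest other library were reached by 1.54% of tested genes in D0 replicate 3, though by 0 of the 8 genes there. The share was 0.334% in D0 replicate 1, 0.0735% in D0 replicate 2, 0.0339% in D14 replicate 1 and 0.181% in D14 replicate 2.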

How the data were processed

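Lung RNA was sequenced as 3 libraries for D0 and 3 for D14. Per the submitters' processing notes, the tools were edgeR, StringTie 1.3.4b, HISAT2 2.1.0 and CASAVA 1.8 and the build GRCm38; neither roles nor order are stated. The values deposited by the authors are estimated counts for each symbol, without depth scaling. Of 29757 lines, 4 without whole values in each library were left out. Another 50 repeated a symbol and were kept apart. Counts were rounded, though those used were whole.

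Genes were tested with edgeR 4.0.16 in R 4.3.3 (TMM factors, default filter, robust quasi-likelihood test, two-sided) with all 6 libraries, and p-values were adjusted by the Benjamini-Hochberg method over all tested genes. The standard error is the log2 fold change divided by the square root of F. Log2 CPM used a prior count of 2. Members, gene lists and tests were chosen with earlier results of these data known. Named are all 8 genes and, of each list, the 3 most abundant and the 2 of smallest p, with exceptions stated; some genes that the rule names are not reported here. Positions and lengths come from GENCODE M21 (GRCm38), promoters from RefSeq (GRCm38.p6), where 5 of the 8 symbols matched. Alternatives were DESeq2 1.42.0, limma-voom 3.58.1, RLE or no factors, no filter or at least 1 CPM in 3 libraries, no robust estimation, a replicate block, each library left out, prior counts of 0.5 and 5, coding length, and, chosen after seeing the data, repeat lines summed and replicate 3 of both days left out. Tested on simulated data (2 simulations of this comparison, 17411 and 17437 genes, 200 changed in each), the test found 17.7% of the genes given a log2 change of 1 and 79.6% of those given 2. Of its 208 calls, 17 were false.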

Additional observations from a re-analysis of the deposited data

How the results depend on the processing

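The count of 0 among the 8 genes held under all 16 alternatives. The number of genes called in the whole table, 6, was 26 with no low count filter, 247 with DESeq2, 0 with the replicate number as a block and 0 to 22 without 1 library. Same-numbered libraries did not deviate together (correlations 0.119, −0.0548 and −0.0972), so the numbers were not taken as pairs; with the replicate block Sqle stood at −0.0064 and no gene of the 8 was called. Sqle changed sign with no scaling factors (−0.039) and limma-voom (−0.0056), was 0.27 without replicate 3 of both days, and ranged from −0.24 to 0.15 without 1 library. Without 1 library, Insig1 ranged from −0.22 to 0.026, Idi1 from −0.55 to 0.17, Scd2 from −0.18 to 0.013, Fasn from −0.045 to 1.33 and Scd1, which kept its sign, from 0.11 to 1.37. The lowest values of Fasn and Scd1 were those without D14 replicate 3. Hmgcs1 kept a positive and Srebf1 a negative value under all 16. Of the 7 lists, only the glycerolipid list gained a call: 0 to 1 without 1 library and 1 without replicate 3 of both days, both times Pcyt1a without D0 replicate 3. The cause was not tested. With coding length in place of transcript length the levels per kilobase rose, most for Scd1 and Scd2, to 877 and 794 at D0. Prior counts of 0.5 and 5 moved no mean of log2 CPM by more than the spread between replicates. Depth limits the genes below the filter, among them Npc1l1, Elovl3, Bglap and Sp7, and 3 libraries per day limit the other genes.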
